A study of Homo sapiens with 8 samples.

Results

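The FOX, SOX, HOX, KLF and GATA genes encode 5 families of DNA-binding transcription factors. The peaks of the RNA-binding protein QKI7 in their messenger RNAs are described here. All genes with a peak in any list whose name begins with FOX, SOX, HOX, KLF or GATA and carries the family's usual numbering were taken, except 2 that the selection leaves out. This gave 42 of the 6520 genes named in the lists, with 314 of the 42083 peaks. All 42 matched a RefSeq symbol of GRCh38.p14. They were 15 FOX, 8 SOX, 6 HOX, 10 KLF and 3 GATA genes.

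The study asked whether METTL1 affects the binding of QKI7 to its target RNAs. It used HepG2, a human liver cancer cell line. All cells carried Cas9 and a lentiviral 3 x Flag-QKI7 transgene, so QKI7 was overexpressed in every group, and GFP-positive cells were expanded after the guide was introduced. The 8 samples formed 4 groups of 2, namely input RNA and Flag immunoprecipitated (IP) RNA from cells with the control guide sgNS, and the same from cells with sgMETTL1, labelled METTL1 KO. The cells were cross-linked with UV. Every IP sample was set against its input to give 1 peak list, hence 2 lists per guide. Separate cultures or clones are not named for the replicates, so a p-value covers only the variation among these samples, possibly technical.

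QKI7 is a cytoplasmic isoform of Quaking, a protein of the STAR family that binds RNA and governs splicing, stability and translation. METTL1, with WDR4, places 7-methylguanosine on tRNA and on some messenger RNAs. FOX proteins bind DNA through a forkhead domain, SOX proteins through an HMG box, HOX proteins through a homeodomain, and KLF and GATA proteins through zinc fingers. FOXA1, FOXA2, GATA4 and GATA6 open and activate chromatin in endoderm and liver, several KLF proteins adjust metabolic and proliferative genes to hormones and nutrients, and HOX genes give body position and are mostly used outside the liver. Messenger RNAs of such factors often turn over quickly and are under strong control in their 3' untranslated regions.

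Of 11562 and 11038 peaks with sgNS, 83 and 87 lay in the 42 genes, and of 10095 and 9388 with sgMETTL1, 76 and 68 did. The lists give no read numbers, so how many reads support a peak is unknown. METTL1 itself had no peak in any list, so the lists hold no check of the knockout. Peaks give enrichment and not expression. Of the marker lists, 5 of 10 hepatocyte genes, 1 of 6 fibroblast genes and 2 of 6 blood genes had any peak, and these counts do not test the identity of the cells. The samples are bulk RNA, so fewer cells with a bound RNA and less bound RNA per cell cannot be told apart.

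A peak was about as common among these families as among other genes, with large differences between families. RefSeq holds 133 protein-coding symbols that fit the same name patterns, not counting the 2 genes left out and including a few readthrough and neighbouring genes named after a family member. Of these, 42 (31.6%) had a peak in at least 1 list, against 6196 of 20056 (30.9%) of all protein-coding genes. By family, 10 of 18 KLF genes (55.6%), 3 of 6 GATA genes, 8 of 18 SOX genes (44.4%), 15 of 51 FOX genes (29.4%) and 6 of 40 HOX genes had one. A gene without a peak may be unexpressed or unbound, and the input levels that would separate these were not analysed here. FOXA3, the third liver FOXA factor, had none. Of the 42 genes, 27 (64.3%) were in all 4 lists, against 63.7% of all listed genes, and 5 (11.9%) were in 1 list, against 15.5%. Differences between the families were not tested, since the members were chosen with results known.

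**Figure D1:**
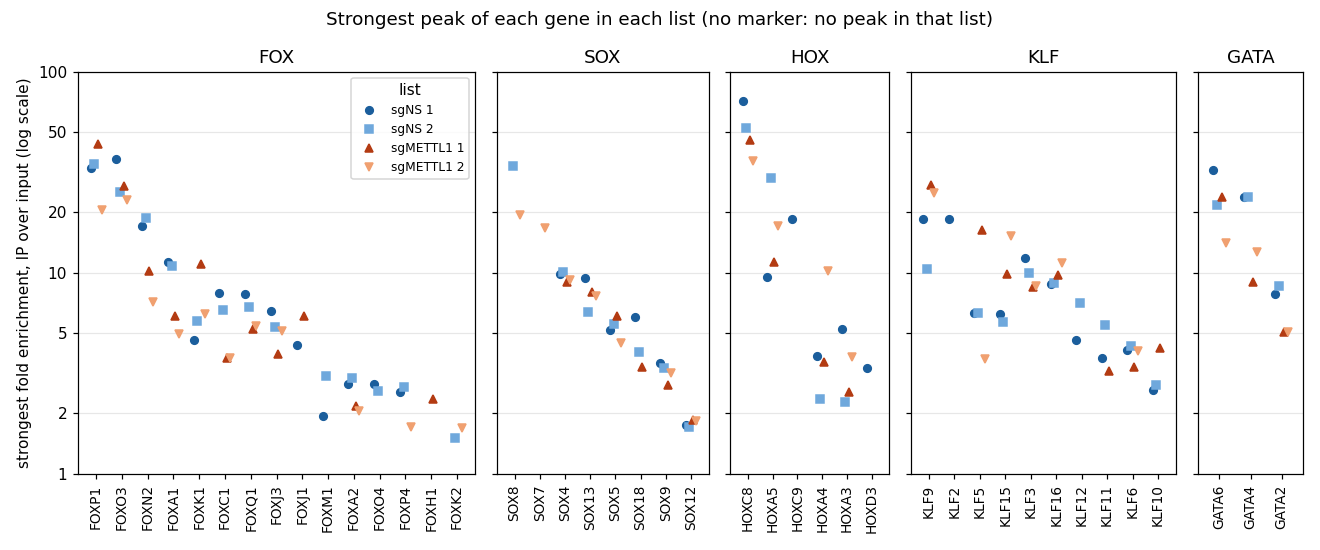
Strongest fold enrichment of IP over input for each of the 42 genes (x axis, by family) in each of the 4 lists (y axis, log scale, 1 marker per list). HOXC8 stands highest in every list, at 71.8 and 52.8 with sgNS and 45.7 and 36.1 with sgMETTL1, and SOX12 lies near the bottom in all 4.

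The fold of a peak is the authors' own ratio of IP over input for that peak and list, and each gene is given here by its strongest fold, replicate 1 before replicate 2. The scale of folds between lists is not stated, so genes are also given by the rank percentile of their fold among the 4150 genes present in all 4 lists, where 0 is the strongest and 100 the weakest. The strongest gene of the 5 families was HOXC8, a factor of trunk and limb patterning. It was listed at 71.8 and 52.8 with sgNS and at 45.7 and 36.1 with sgMETTL1, and stood at rank 109, 204, 293 and 346 among the genes of the respective lists. Both sgMETTL1 values were below both sgNS values. Its peak lay at the 3' end of the gene (chr12:54012167-54012731, plus strand) and had modest significance, with a -log10 p of 14.8, 11.1, 8.05 and 6.79. FOXQ1, with folds of only 7.88, 6.76, 5.27 and 5.41, had a -log10 p of 561, 433, 91.0 and 93.5. Fold and p of a peak thus gave different orders, and a high fold in these lists did not require a highly significant peak.

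Among the FOX genes, 9 of 15 were in all 4 lists. FOXP1, a repressor used in the development of heart, lung and lymphocytes, was listed at 33.3 and 34.8 with sgNS and 43.7 and 20.6 with sgMETTL1. FOXO3, a factor of stress resistance that insulin signalling restrains, was listed at 36.7 and 25.2 with sgNS and 26.9 and 22.9 with sgMETTL1. In both genes the groups overlapped by fold and by rank. FOXN2, a forkhead factor of the N group, stood at 17.0 and 18.8 with sgNS and 10.2 and 7.12 with sgMETTL1. FOXA1, the pioneer factor that opens chromatin for hormone receptors and liver factors, stood at 11.3 and 10.8 with sgNS and 6.10 and 4.94 with sgMETTL1. For FOXN2 and FOXA1 both sgMETTL1 lists were below both sgNS lists, by fold and by rank. In replicate 1 of sgMETTL1, the fold of 10.2 for FOXN2 was shared by 61 peaks and the 6.10 of FOXA1 by 173. FOXA2, its close relative in liver, was the weakest FOX gene of all 4 lists, at 2.80 and 3.00 in the sgNS lists and 2.17 and 2.06 in the others.

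The other FOX genes of all 4 lists had middling folds. FOXC1, a factor of mesoderm and eye development, was listed at 7.90 and 6.52 with sgNS and 3.77 and 3.76 with sgMETTL1. FOXQ1, which is linked to epithelial plasticity in tumours, gave the values above. FOXJ3 stood at 6.45, 5.38, 3.94 and 5.15. FOXK1, a regulator of glycolysis and autophagy genes, ran the other way, at 4.63 and 5.73 with sgNS and 11.1 and 6.25 with sgMETTL1. FOXK1 was thus the FOX gene of all 4 lists in which both sgMETTL1 lists were above both sgNS lists, by fold and by rank. Its folds of 4.63 and 6.25 were shared by 149 and 54 peaks of their lists.

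Of the remaining FOX genes, FOXM1, which drives genes of mitosis, was listed at 1.94 and 3.05 with sgNS and in neither sgMETTL1 list. FOXO4, a relative of FOXO3, was listed at 2.78 and 2.58 with sgNS only. FOXP4 was listed at 2.54 and 2.71 with sgNS and at 1.70 in replicate 2 of sgMETTL1. These folds were below the median of all peaks of their lists, which was 4.33 to 4.58. The smallest values of the lists were 1.09 to 1.15. FOXK2 was listed in replicate 2 of both guides, at 1.5 and 1.68. FOXJ1, the factor of motile cilia, was listed in replicate 1 of both guides, at 4.37 and 6.10, but at different places. FOXH1, a partner of SMAD proteins in Nodal signalling, had a single peak, in replicate 1 of sgMETTL1, at 2.35. That peak shares its place with a peak of KIFC2 on the other strand.

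The 3 GATA genes were in all 4 lists. GATA6 and GATA4, which specify endoderm and are kept in liver cells, stood among the stronger genes of the 5 families. GATA6 was listed at 32.5 and 21.7 in the sgNS lists and 23.8 and 14.0 in the sgMETTL1 lists, and its groups overlapped. GATA4 was listed at 23.8 in both sgNS lists and at 8.96 and 12.7 with sgMETTL1 (chr8:11757003-11760002, plus strand, over all lists). GATA2, a factor of blood progenitors, was listed at 7.81 and 8.59 with sgNS and 5.08 and 5.06 with sgMETTL1. Its fold of 5.08 in replicate 1 of sgMETTL1 was shared by 53 peaks of that list. For GATA4 and GATA2 the groups did not overlap, and sgMETTL1 was the lower.

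The SOX genes held 5 of 8 in all 4 lists, and the values of SOX4, SOX9 and SOX12 were close between lists. SOX4, a factor of progenitor and tumour cells, was listed at 9.84 and 10.1 with sgNS and 8.95 and 9.17 with sgMETTL1. SOX13 stood at 9.40, 6.34, 8.03 and 7.63, and SOX5, of the same SOXD group, at 5.16, 5.58, 6.10 and 4.48. SOX9, which marks bile duct cells and cartilage, stood at 3.54 and 3.36 with sgNS and 2.76 and 3.15 with sgMETTL1. By rank, the groups overlapped for SOX4, SOX5 and SOX9 and did not for SOX13. The groups of SOX13 were apart by little, at percentiles of 49.3 and 62.3 against 48.4 and 47.2, and its folds overlapped. Folds of 6.34 for SOX13 and 6.10 for SOX5 were shared by 112 and 173 peaks of their lists. SOX12, the weakest, was listed at 1.74 and 1.71 with sgNS and 1.84 and 1.82 with sgMETTL1, at percentiles of 98.8, 98.7, 97.6 and 96.7. Its peak nevertheless recurred at a single place in all 4 lists, with a -log10 p of 26.5 to 36.6.

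SOX18 and SOX7, factors of blood vessels, and SOX8, a relative of SOX9, were missing from some lists. SOX18 was listed at 5.99 and 4.02 with sgNS and 3.40 in replicate 1 of sgMETTL1. SOX8 was listed in replicate 2 of both guides, at 33.8 and 19.4, and SOX7 in replicate 2 of sgMETTL1 at 16.7. The values of SOX7 and SOX8 were high folds with little significance, at a -log10 p of 6.83 and 3.70 for SOX8 and 2.74 for SOX7. The fold of 16.7 was shared by 140 peaks of that list and the fold of 19.4 by 144.

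The 3 HOXA genes varied widely between replicates of the same guide, more than HOXC8 did. HOXA5, expressed in gut and lung mesenchyme, was listed at 9.52 and 29.6 with sgNS and 11.3 and 17.1 with sgMETTL1. HOXA4 stood at 3.86 and 2.35 with sgNS and 3.60 and 10.2 with sgMETTL1. Its peak at 10.2 had a -log10 p of 6.18, and 55 peaks of that list shared the fold. HOXA3 stood at 5.25 and 2.28 with sgNS and 2.56 and 3.82 with sgMETTL1. By fold all 3 HOXA genes overlapped between guides, and the replicates differed by more than 1.5 times in each guide for HOXA4 and HOXA5, and with sgNS for HOXA3. HOXC9 (18.5) and HOXD3 (3.36) were listed only in replicate 1 of sgNS. The fold of HOXC9 was given to 140 peaks of that list. Its peak lay on chromosome 12 in the same cluster as HOXC8, and the peaks of HOXA3, HOXA4 and HOXA5 lay in the HOXA cluster on chromosome 7.

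Of the 10 KLF genes 6 were in all 4 lists. KLF9, which glucocorticoids induce, was listed at 18.5 and 10.4 with sgNS and 27.4 and 25.0 with sgMETTL1. Its folds of 18.5, 27.4 and 25.0 were shared by 140, 96 and 79 peaks of their lists. The peaks at 27.4 and 25.0 had a -log10 p of only 4.59 and 4.68. KLF15, which controls gluconeogenesis and amino acid breakdown in liver, was listed at 6.24 and 5.71 with sgNS and 9.90 and 15.3 with sgMETTL1. KLF16 stood at 8.81 and 8.87 with sgNS and 9.76 and 11.2 with sgMETTL1. In these 3 genes both sgMETTL1 lists were above both sgNS lists, by fold and by rank. KLF3, a repressor that recruits CtBP, stood at 11.8 and 9.96 with sgNS and 8.49 and 8.54 with sgMETTL1. KLF5, a factor of proliferating epithelium, stood at 6.32 and 6.31 with sgNS and 16.3 and 3.70 with sgMETTL1. KLF6, found in many tissues and named as the weakest KLF gene of all 4 lists, stood at 4.12 and 4.32 in the sgNS lists and 3.39 and 4.07 in the others. The ranks of KLF3, KLF5 and KLF6 overlapped between guides, and KLF5 held the widest gap between the sgMETTL1 replicates among these 6.

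KLF10 and KLF11, both induced by TGF-beta, were listed at 2.62, 2.76 and 4.24 and at 3.77, 5.49 and 3.24 in the same 3 lists, and not in replicate 2 of sgMETTL1. KLF12, a repressor related to KLF3, was listed at 4.63 and 7.04 with sgNS and in neither sgMETTL1 list. KLF2, which flow induces in endothelium, was listed in replicate 1 of sgNS at 18.5, the fold that 140 peaks of that list shared.

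No rank difference between the guides passed the test in these families. For each of the 4150 genes of all 4 lists, the rank of the strongest fold was turned into a normal score, on which 0 is the middle of the list and higher is stronger, and sgMETTL1 was compared with sgNS by limma. At an FDR of 5%, 0 of the 27 genes and 0 of the 4150 (0%) were called, with a smallest adjusted p of 0.371 and 0.221. At an unadjusted p under 0.05, 196 genes were weaker with sgMETTL1 (4.72%) and 212 stronger (5.11%), among them 2 and 3 of the 27. The median difference was -0.03 over the 27 genes and -0.02 over all. With 2 lists against 2, an exact permutation test of a single gene cannot go below p = 0.33.

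**Figure D2:**
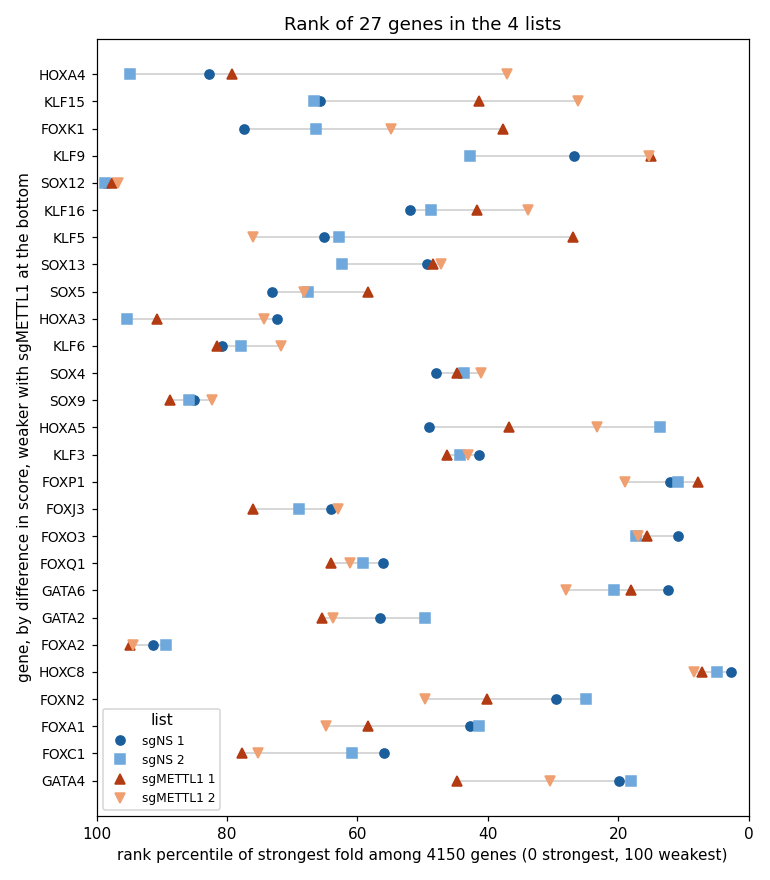
Rank percentile of the strongest fold (x axis, 0 strongest on the right) in each list for the 27 genes of all 4 lists, ordered by their difference in score. The groups do not overlap for GATA4, FOXC1, FOXA1 and FOXN2 at the bottom, where the sgMETTL1 markers lie to the left, nor for HOXA4, KLF15, FOXK1 and KLF9 at the top.

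Although none passed the test, the differences with the smallest p are given by gene. FOXC1 stood at percentiles of 56.0 and 60.9 in the sgNS lists and 77.7 and 75.2 in the others, a difference in score of -0.51 (limma SE 0.182, unadjusted p = 0.0406, adjusted p = 0.484). FOXA1 stood at 42.7 and 41.4 against 58.4 and 64.8, a difference of -0.50 (SE 0.184, limma adjusted p = 0.497). GATA4 stood at 19.9 and 18.1 against 44.7 and 30.5 (-0.56, SE 0.215, limma adjusted p = 0.512), and FOXN2 at 29.6 and 24.9 against 40.2 and 49.7 (-0.48, SE 0.198, limma adjusted p = 0.523). These 4 genes were picked as those with the smallest p among the weaker ones, so their lower ranks are not a separate result. In the other direction KLF15 stood at percentiles of 65.8 and 66.6 against 41.3 and 26.2, a difference of 0.85 (SE 0.222, unadjusted p = 0.0138, limma adjusted p = 0.371). KLF9 stood at 26.8 and 42.7 against 14.9 and 15.3 (0.63, SE 0.226, limma adjusted p = 0.484), and FOXK1 at 77.4 and 66.4 against 37.6 and 54.8 (0.69, SE 0.250, limma adjusted p = 0.489). HOXA4 had the widest difference, 1.04 (SE 0.469, limma adjusted p = 0.544), with percentiles of 82.7 and 94.9 against 79.3 and 37.0. Replicate 2 of sgMETTL1 set most of that difference, which was 0.45 without it. On the mean of a gene's peaks in place of the strongest, the difference was 0.13 for KLF9 and 0.43 for KLF15.

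Counting only whether the 2 groups overlap, 8 of the 27 genes (29.6%) ranked weaker in both sgMETTL1 lists, against 22.7% of all genes of the 4 lists. They were FOXA1, FOXA2, FOXC1, FOXN2, FOXQ1, GATA2, GATA4 and HOXC8. In the other direction 7 of 27 (25.9%) ranked stronger, against 20.0% of all genes, namely FOXK1, HOXA4, KLF9, KLF15, KLF16, SOX12 and SOX13. Both shares were near those of all genes. The first set held 5 FOX genes, 2 GATA genes and 1 HOX gene and no KLF or SOX gene, while the second held 3 KLF and 2 SOX genes, 1 FOX gene and 1 HOX gene. Whether the families differ was not tested.

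Few genes of the 5 families left or entered the lists with the guide. FOXM1, FOXO4 and KLF12 were named in both lists of sgNS and in none of sgMETTL1, 3 of 42, where 4.63% of all 6520 genes were. No member was in both sgMETTL1 lists and in neither sgNS list, where 1.52% of all genes were. FOXM1 had a recurring peak far from the 3' end of its gene (chr12:2874135-2874314, minus strand), at 1.94 and 1.79, and 2 further peaks in replicate 2 of sgNS. FOXO4 had a recurring peak at 2.38 and 2.58 with a -log10 p of 3.66 and 3.70. KLF12 had peaks at different places in the sgNS lists, 5047, 73 and 8928 bases from the 3' end, so that none of its sites was in both. With equal numbers of top-ranked peaks per list, 1 gene, FOXM1, met the definition. Among peaks whose fold was 2 or more times the smallest of their list, 4 genes did, namely FOXA2, FOXO4, FOXP4 and KLF12, and FOXM1 did not. Without replicate 2 of sgNS there were 6 (14.3%, against 9.92% of all genes), with HOXC9, HOXD3 and KLF2 added. Without replicate 1 of sgMETTL1 there were also 6 (14.3%, against 9.22%), with KLF10, KLF11 and SOX18 added. SOX7 would count as gained without replicate 1 of sgMETTL1, and FOXH1 without replicate 2.

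Peaks of the same gene that shared at least 1 base of exon between lists were joined into 104 sites. Of these, 47 (45.2%) were in all 4 lists, against 41.3% of all 14518 sites, and 40 (38.5%) were in a single list, against 32.4%. Sites found with sgNS in both replicates and with sgMETTL1 in none numbered 5 (4.81%), against 7.42% of all sites. They were site 3 of FOXC1, site 3 of FOXJ3, site 1 of FOXM1, site 1 of FOXO4 and site 1 of SOX4, counted from the 5' end of each gene. Their folds were 6.65 and 3.02, 1.66 and 1.97, 1.94 and 1.79, 2.38 and 2.58, and 2.28 and 2.15. FOXC1, FOXJ3 and SOX4 kept other sites in all 4 lists, so 3 of these 5 were losses of a site and not of a gene. The reverse held for 1 site (0.962%), against 1.21% of all sites, namely site 1 of SOX5 at 1.93 and 2.85 with sgMETTL1. Leaving out a list gave 8 to 21 sites lost (7.69 to 20.2% of the 104), against 11.4 to 19.1% of all sites, and 1 to 8 gained (0.962 to 7.69%), against 2.15 to 8.02%. The most were lost without replicate 1 of sgNS (21) and the most gained without replicate 2 of sgMETTL1 (8).

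FOXK1, with 8 sites, and FOXJ3, FOXO3, KLF5 and SOX5, with 5 each, were the most divided genes. In FOXK1 the site nearest the 3' end held the strong fold (chr7:4770246-4771353, plus strand), and its other 7 sites stayed between 1.38 and 2.57. FOXO3 had a strong pair. Site 3 (chr6:108681651-108682760, plus strand) was listed at 36.7 and 25.2 with sgNS and 26.9 and 22.9 with sgMETTL1, and site 5, nearer the 3' end (chr6:108684288-108684768), at 17.8 and 19.6 with sgNS and 11.1 and 13.1 with sgMETTL1. Site 4, between them, stayed at 1.68 to 2.54. The strong peaks were thus separate places within the transcript and recurred in all 4 lists. In FOXP1 a peak of up to 2032 bases carried the strong fold (chr3:70955192-70957223, minus strand), and site 1 upstream of it stood at 5.82, 3.98, 5.94 and 3.70.

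The 3 sites of FOXA1 that were in all 4 lists behaved alike. Site 3 (chr14:37590001-37590479, minus strand) was listed at 11.3 and 10.8 with sgNS and 6.10 and 4.94 with sgMETTL1. Site 2 (chr14:37590838-37591167) stood at 5.51 and 5.36 against 3.18 and 2.66, and site 1 (chr14:37591227-37591406) at 2.73 and 2.65 against 1.92 and 1.58. In each, both sgMETTL1 folds were below both sgNS folds, and the sgNS replicates were within a few percent of each other. Lower folds with sgMETTL1 were common among sites of all 4 lists. On log2 folds, 4175 of all 6003 and 32 of the 47 of these families were lower, with median differences of -0.22 and -0.23. The share of all sites whose folds do not overlap was not counted. Site 4, the nearest to the 3' end, was in replicate 1 of sgNS only, at 7.72. FOXN2 did not do the same. Its sites 1 and 3 stood at 4.39 and 3.40 against 2.77 and 2.07, and at 17.0 and 18.8 against 10.2 and 7.12. Site 2, between them (chr2:48377146-48377952, plus strand), stood at 2.81 and 2.29 with sgNS and 3.13 and 3.83 with sgMETTL1, so it was the higher with sgMETTL1 while its neighbours were the lower. The peaks of site 2 were 807 bases wide in both sgNS lists and 359 and 478 bases wide with sgMETTL1, and the part of this width in the folds was not tested.

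**Figure D3:**
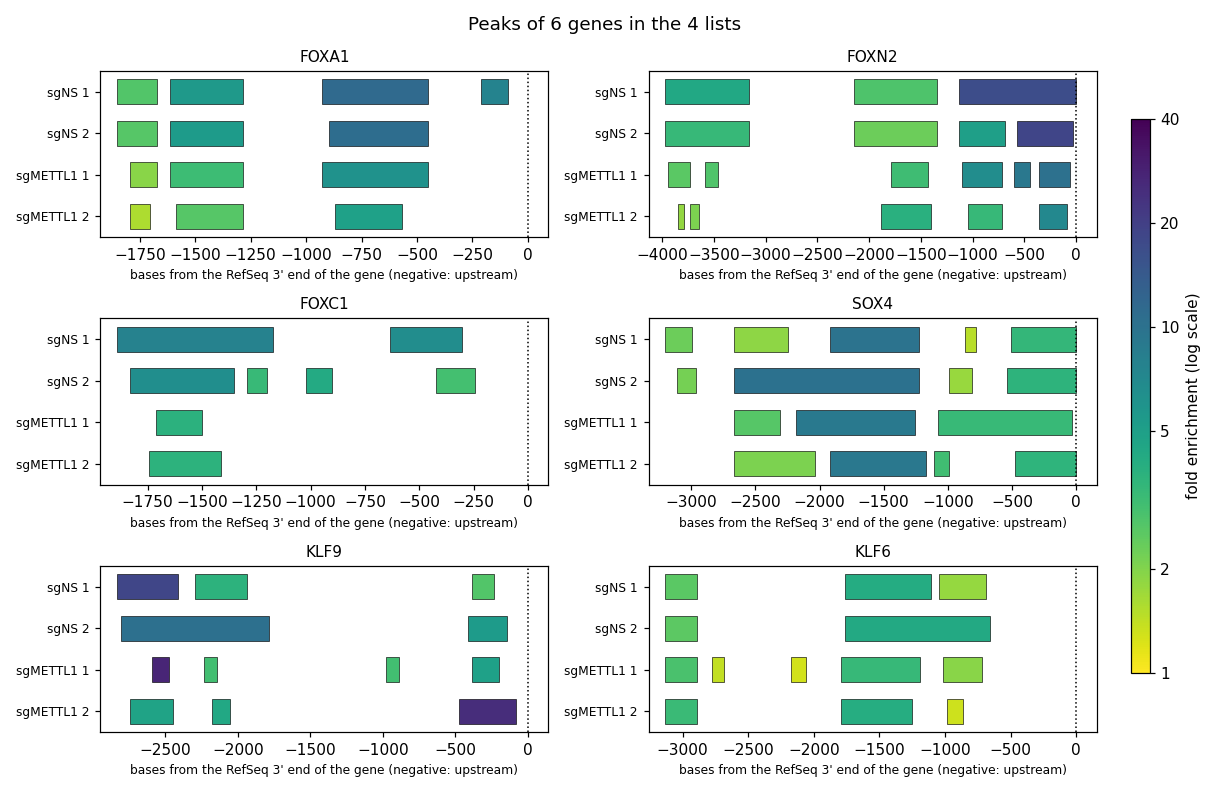
Peaks of FOXA1, FOXN2, FOXC1, SOX4, KLF9 and KLF6 in each list (rows), by distance in bases from the RefSeq 3' end of the gene (x axis, dotted line at the end), with colour for the fold on a log scale. The 3 shared FOXA1 sites recur at the same places with lighter colours in the sgMETTL1 rows, the FOXC1 peaks near the 3' end are present in the sgNS rows only, and the strongest KLF9 peak of replicate 2 of sgMETTL1 lies at another site than that of the other lists.

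The test on sites gave no call. Each site took the rank of its fold among all peaks of its list, and 0 of the 6003 sites of all 4 lists (0%) passed an FDR of 5% with limma. On this scale the median difference, sgMETTL1 minus sgNS, was -0.18 over all sites and -0.16 over the 47 sites of these families. At an unadjusted p under 0.05, 12.7% of all sites were weaker and 2.50% stronger, and 8 and 1 of the 47 were. Ranked instead among the 6003 sites of all 4 lists, which removes the unequal lengths of the lists and was chosen after the data were seen, the median difference was -0.02 over all sites and -0.04 over the 47. Then 5.05% of all sites were weaker and 5.41% stronger at an unadjusted p under 0.05, with 4 and 4 of the 47, and again 0 were called. The FOXA1 sites 1, 2 and 3 differed by -0.66, -0.60 and -0.49 on that scale, with limma adjusted p-values of 0.425, 0.422 and 0.463. FOXN2 sites 1, 2 and 3 differed by -0.50, 0.68 and -0.44, with adjusted p-values of 0.507, 0.431 and 0.506.

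The ratio between the strongest and the second site of a gene needs no scale between lists. Of the 14 genes of these families with at least 2 sites in all 4 lists, 6 had a smaller ratio in both sgMETTL1 lists than in both sgNS lists, where 21.1% of all 1343 such genes did. None of the 14 had a larger ratio in both, where 18.2% of all did. The difference between these shares was not tested. The 6 genes were FOXA1, FOXN2, GATA6, KLF3, KLF6 and SOX4. In GATA6 the upstream site, a peak of up to 5 exon blocks, exceeded the second site by 7.02 and 5.86 times with sgNS and by 4.39 and 3.21 times with sgMETTL1. For KLF3 the ratio was 1.75 and 1.59 with sgNS against 1.13 and 1.28 with sgMETTL1, and for KLF6 it was 1.60 and 1.71 against 1.18 and 1.24. In FOXA1 (2.05 and 2.01 against 1.92 and 1.86) and SOX4 (2.84 and 2.73 against 2.69 and 2.51) the groups were apart by little. The other 8 genes overlapped. Those of KLF9 spread widest, at 6.75 and 1.94 with sgNS against 5.61 and 0.189 with sgMETTL1. Its site 3 was listed at 25.0 in replicate 2 of sgMETTL1, a fold shared by 79 peaks of that list, and at 2.74, 5.36 and 4.88 in the other lists, so the gene's ranks in the 2 sgMETTL1 lists rest on different sites.

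The peaks of these genes covered fewer bases with sgMETTL1, as those of most genes did. Over the 27 genes of all 4 lists, the median ratio of bases under peaks, sgMETTL1 over sgNS, was 0.769, against 0.801 over all 4150 genes. Both sgMETTL1 lists held fewer bases than both sgNS lists for 18 of the 27 (66.7%), against 58.8% of all genes, and more for 3 of the 27 (11.1%), against 3.71%. FOXC1 covered 1052 and 874 bases with sgNS and 211 and 331 with sgMETTL1, and FOXN2 covered 2749 and 2601 against 1528 and 1228. FOXQ1 covered 1427 and 1398 against 656 and 833, while FOXO3, the widest, covered 3692 and 3902 against 2643 and 2492. The 3 genes with more bases in both sgMETTL1 lists were SOX12 (300 and 239 against 389 and 448), SOX5 (570 and 540 against 779 and 957) and HOXA5 (356 and 326 against 386 in both). The median -log10 p of all peaks was 10.8 in both sgNS lists and 7.42 and 7.97 with sgMETTL1, and that of the peaks of these families was 15.4 and 13.0 against 8.27 and 8.34. The bases under peaks moved with this difference between the lists, and its part in them was not tested.

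**Figure D4:**
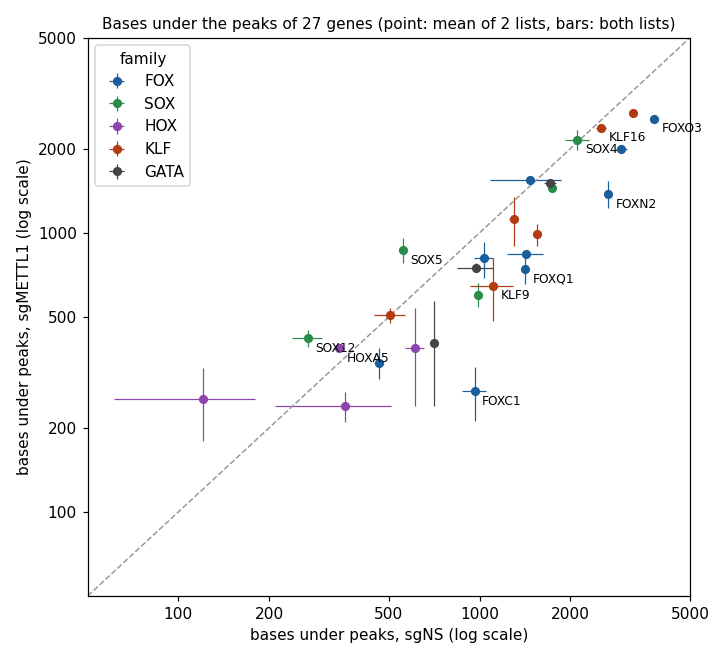
Bases under the peaks of the 27 genes of all 4 lists, with sgNS on the x axis and sgMETTL1 on the y axis (both log scales), each point the mean of 2 lists and each bar spanning both lists. Most points lie under the dashed line of equal bases, FOXC1 farthest below it. HOXA4, whose groups overlap, lies farthest above it, followed by SOX5 and SOX12.

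The peaks recurred between replicates about as often as those of other genes. In replicate 1 of sgNS, 69 of 83 peaks of these families (83.1%, 95% exact Clopper-Pearson interval 73.3 to 90.5) shared at least 1 base with a peak of replicate 2, against 78.8% of all peaks. In the reverse direction it was 68 of 87 (78.2%, 68.0 to 86.3), against 83.5%. With sgMETTL1 the shares were 78.9% (68.1 to 87.5) and 86.8% (76.4 to 93.8), against 73.4% and 77.9%. An sgNS list met 86.8 to 92.6% of the sgMETTL1 peaks of these families, against 82.6 to 85.3% of all sgMETTL1 peaks. An sgMETTL1 list met 65.5 to 72.3% of their sgNS peaks, against 64.1 to 69.8% of all. Intervals cover counting error only, and peaks of the same gene are not independent. With 50% reciprocal overlap, a stricter rule, the first share was 57.8% (46.5 to 68.6), against 64.7% of all peaks.

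Distances of the peaks from the 3' end of the gene were similar to those of other genes. The median distance from a peak's centre to the RefSeq 3' end was 1454 bases, against 1660 over all peaks, and 42.0% of centres lay within 1000 bases of it, against 36.3%. For some recurring sites the distance was large, counted in genomic bases with introns included. The only site of KLF15 (chr3:126342754-126343466, minus strand) was 54629 bases or more from the 3' end that RefSeq gives for the gene. That end is the outer bound of the gene, and whether a KLF15 transcript ends nearer the site was not examined. The centres of site 1 of FOXJ3 were 33232 to 34878 bases from the 3' end of that gene. Those of site 1 of GATA6 were 11300 to 13616 bases away, of site 1 of FOXO3 4307 to 12300, and of site 1 of FOXM1, in the sgNS lists, 16544. The sites of FOXJ3, GATA6 and FOXO3 hold peaks of several exon blocks, whose centres are midpoints of spans with introns. The edges of their peaks nearest the 3' end lay 15114 to 18404, 1408 to 1738 and 3692 to 4652 bases from it. Of 235 peaks whose gene has a RefSeq promoter entry, 0 lay on that 300-base window, which holds 0.462% of all such peaks, and 0 of the 314 lay on a miRNA hairpin. No transcript models were used, so exon, intron and UTR are not assigned here. Most peaks had a single exon block, and 4 to 8 per list joined several, among them peaks of GATA6, FOXJ3, KLF3 and KLF5.

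Some other factors of liver and known partners of these families also had peaks. Of 19 liver transcription factors outside the 5 families, 12 had a peak, of which 10 appeared in both replicates with sgNS and 9 in both with sgMETTL1, and 1 was lost. The strongest were PPARA, the fatty acid receptor, at 17.8, 16.7, 18.1 and 10.1, and TBX3, at 16.8, 14.3, 13.6 and 14.6, followed by NR5A2 and ONECUT2. Of 26 partners and relatives, 12 had a peak, of which 10 appeared in both replicates with sgNS and 8 in both with sgMETTL1, and 2 were lost. Among all protein-coding genes 30.9% had a peak, and 4.63% of all listed genes were lost. The difference of either gene set from these shares was not tested. MEIS1, a homeodomain partner of HOX proteins, was listed at 74.1 and 40.1 with sgNS and 33.5 and 44.4 with sgMETTL1, and TLE4, a corepressor, at 23.1 and 54.9 against 24.4 and 36.1. MEIS1 was thus in the same high range as HOXC8, and its groups overlapped. SP5 (13.5 and 14.3 against 7.90 and 7.27) and SP1 (9.26 and 6.03 against 7.70 and 19.4), zinc finger relatives of the KLF proteins, came next, and SP5 was the lower in both sgMETTL1 lists.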

How the data were processed

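The 8 samples were grouped by their titles. The submitters' processing notes name STAR and GRCh38. For the peak caller, its scaling and the STAR version, the sources used here give nothing. Peak lists were deposited by the authors, 1 per IP and input pair, replicates not pooled. In it the fold enrichment is the authors' ratio of IP over input, the p-value is the authors' own, and its base-10 logarithm, which exceeds the usual range, was handled as a score and printed as -log10 p.

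Strongest folds were ranked within each list and compared two-sidedly in R 4.3.3 with limma 3.58.1 and Benjamini-Hochberg adjustment. The fit was tried on simulated shifts larger than any difference given here, so its power at the sizes seen was not examined. Sites and shares came from Python 3.11.15, pandas 2.3.3, numpy 2.4.6 and scipy 1.17.1, and figures from matplotlib 3.10.9. Coordinates are 1-based.

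The members and lists were chosen with earlier results of these data known. Genes were named by a rule: the 4 best-ranked and the weakest of each family, those lost or gained, the 4 with most sites, and the 4 smallest p in each direction. The other members were added so that all are accounted for. Alternatives were log2 folds, the mean of a gene's peaks, a fold filter, no shared places, equal numbers of peaks, 50% reciprocal overlap, a replicate block, other ranks of sites, and leaving out each list. No sequence is printed, since no member's peak lay on a region of the sequence tables used.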

Additional observations from a re-analysis of the deposited data

How the results depend on the processing

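No gene or site of these families was called in any alternative that kept all 4 lists. None of the differences given for the 8 genes and the sites of FOXA1 and FOXN2 changed direction, though sizes moved. The 8 genes were picked by p, and their ranks and the folds of these sites did not overlap between guides. Leaving out a list or adding the replicate block could thus scarcely reverse a direction, so its constancy there is no separate result. KLF9 ranged from 0.13 to 0.92, KLF15 from 0.43 to 1.04, FOXK1 from 0.45 to 0.87, HOXA4 from 0.45 to 1.58, GATA4 from -1.37 to -0.37, FOXA1 from -1.01 to -0.40, FOXN2 from -1.07 to -0.35 and FOXC1 from -0.93 to -0.40, where log2 folds are on another scale than scores. With the replicate block, 0 genes were called and 1 of the 27 was at an unadjusted p under 0.05, against 180 lower and 200 higher of all 4150. The replicate numbers did not pair the lists, with a correlation of same-numbered deviations of -0.002. Genes lost numbered 1 with equal numbers of top-ranked peaks and 3 to 6 without each list in turn, and genes gained 0 to 1. Sites lost numbered 3 with equal numbers and 8 to 21 without each list. Sites gained numbered 0 with equal numbers, with a fold of at least 2 times the minimum or with 50% reciprocal overlap, and 1 to 8 without each list. The share of replicate 1 of sgNS met by replicate 2 was 57.8% with 50% reciprocal overlap and 92.5% with equal numbers. On log2 folds, 5 genes of the 27 were lower and 1 higher at an unadjusted p under 0.05, with a median difference of -0.23, against 382 lower and 118 higher of all 4150 and a median of -0.24. Depth is unknown, and folds shared by many peaks limit the ranks of weakly supported peaks.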
